A study of Mus musculus with 12 samples.

Results

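Lymphatic endothelial identity genes were followed in mouse lymph node: Prox1, Lyve1, Pdpn, Mmrn1, Reln, Marco, Stab2, Ptx3 and Foxc2. The 9 genes were fixed by symbol, out of 32285 genes in the count tables, and each symbol had a single entry. They were counted as unique molecular identifiers (UMIs, each standing for 1 captured RNA molecule) in single cells from the 6 libraries labelled CD31 endothelial, out of 12 libraries in all. A cell entered when Pecam1 and Cdh5, which encode the pan-endothelial surface proteins CD31 and VE-cadherin, together had at least 2 UMIs, which left 31753 gated cells. At the edge of that gate, 370 of 3833 cells with exactly 2 UMIs (9.65%) had a Prox1 UMI, beside 391 of 5554 cells with exactly 1 (7.04%).

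All mice were C57BL/6 animals of 7 to 10 weeks that carried ATG12 fl/fl, an Atg12 gene flanked by loxP sites, and all were given tamoxifen 5 times. They were positive or negative for CDH5 CreER, a tamoxifen-activated recombinase under the Cdh5 promoter, which is active in blood and lymphatic endothelium alike. Each label was sampled 3 days and 7 days after 50 ul of 4% oxazolone, a contact sensitiser, on the shaved abdomen, and after acetone and olive oil without oxazolone (vehicle). Nodes were digested with enzymes, depleted of CD45-positive immune cells with beads and sorted by flow cytometry. Each of the 6 combinations of label and treatment was a single library, and the labels used here do not give the number or the sex of the mice in it. Counting intervals below are at 95% and cover counting error only, with no replicate check. Those on UMIs take each UMI as independent, although UMIs of a gene can lie together in few cells. They leave out the spread between cells and between libraries, and so decide no difference by label. The test across libraries was edgeR's quasi-likelihood test with label and treatment as additive terms.

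Lymphatic endothelium lines the vessels and sinuses that carry lymph, cells and antigen through the node. Prox1 is the transcription factor that sets and maintains its identity, and Foxc2 is a forkhead factor required for valves and collecting vessels. Lyve1 is a hyaluronan receptor, Pdpn (podoplanin) a mucin-type glycoprotein that engages CLEC-2 on platelets and dendritic cells, and Stab2 and Marco are scavenger receptors. Mmrn1 (multimerin), Reln (reelin) and Ptx3 (pentraxin) are secreted. Within the node the floor of the subcapsular sinus faces the parenchyma, the ceiling faces the capsule, and the paracortical and medullary sinuses lie deeper.

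The 6 libraries held 45438350 to 76187731 UMIs, and 4250 to 6823 gated cells each. In the Cre-positive day 3 library 13.7% of gated cells, and in the Cre-negative vehicle library 4.67%, lay in a cluster of low UMI count, beside 0.0593% to 0.494% in the other libraries. Pairs of libraries shared 9 to 25 cell barcodes (0.125% to 0.370% of the smaller library). Among lymphatic-like cells, defined in the next paragraph, those with a Y-linked and no Xist UMI made up 18.5% to 83.0% per library. In the Cre-positive vehicle library no such cell had Xist without a Y-linked UMI, while 30.4% to 74.9% did in the other libraries. Atg12 in lymphatic-like cells was at 58.6, 47.7 and 52.5 CPM (UMIs of a gene scaled to the same total of UMIs in every library) in the Cre-negative libraries (vehicle, day 3, day 7) and at 80.2, 72.8 and 59.3 in the Cre-positive ones. Whether the counted 3′ end lies in the deleted part is not stated, so these values do not check the deletion. UMIs of mRFP, an added reporter sequence, numbered 364, 930 and 342 in the Cre-positive libraries and 0 in the Cre-negative day 7 library; the other Cre-negative tables do not list it.

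The gated cells were clustered with the 9 genes left out. Clusters were called lymphatic-like when at least 4 of 7 other lymphatic markers (Flt4, Ccl21a, Nrp2, Maf, Fgl2, Tbx1, Cp) lay at least 2-fold above the other gated cells and outnumbered raised blood endothelial markers. That gave 3 of 26 clusters and, without 113 cells of 3 subclusters that also carried blood endothelial, B cell or T cell markers, 4109 lymphatic-like cells (12.9% of gated cells). Summed blood endothelial markers were at 620 to 858 CPM in these cells, against 5675 to 6876 CPM in the other gated cells. Markers of high endothelial venules (Glycam1, Chst4, Fut7, Enpp2 and Gcnt1) were not low throughout, and are given with the subsets below. Macrophage markers summed to 1.31 to 6.32 CPM, with Adgre1 and Fcgr1 at 0 in all 6 libraries. B cell markers summed to 3.41 to 12.1 CPM and T cell markers to 1.99 to 6.55 CPM. Fibroblast markers summed to 63.1 to 179 CPM, of which Dcn made up 61.7 to 178 CPM, while Lum was at 0 and Col1a1, Col1a2 and Pdgfra were at most at 1.40 CPM. Pericyte markers summed to 73.8 to 164 CPM, of which Rgs5 made up 72.8 to 162 CPM, with Pdgfrb at most at 1.43 CPM.

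Over the 6 libraries together, all of the genes except Marco were concentrated in the lymphatic-like cells. Of all UMIs in gated cells, lymphatic-like cells held 95.6% of those of Stab2, 95.4% of Mmrn1, 94.0% of Pdpn, 93.8% of Prox1, 93.6% of Foxc2, 91.5% of Ptx3, 89.9% of Reln and 88.8% of Lyve1. Single libraries departed from these pooled shares. Other gated cells held 99 of 337 Reln UMIs in the Cre-negative vehicle library. In the Cre-positive day 3 library they held 45 of 257 Reln UMIs and 43 of 179 Ptx3 UMIs. Over all libraries they held 51 Ptx3 UMIs. The part of the low-UMI cluster, large in these 2 libraries, was not tested. At day 3 other gated cells held 433 of 1680 Lyve1 UMIs in the Cre-negative library and 380 of 2203 in the Cre-positive one. There 176 and 179 other gated cells had a Lyve1 UMI, against 158 and 179 lymphatic-like ones. These were 4.30% and 2.81% of the other gated cells, against 1.16% to 2.12% in the remaining libraries. The source of these Lyve1 UMIs was not tested. Lymphatic-like cells held 47.0% of the 11489 Marco UMIs. A further 48.4% of Marco UMIs lay in 1 cluster of 352 gated cells whose leading genes included Ccl8, Lyz2, Cd209b, Timd4 and C1qa, genes known from macrophages, beside the granulocyte genes S100a8 and S100a9. In the Cre-negative vehicle library Marco was higher outside the lymphatic-like cells (73.3 CPM) than within them (28.1 CPM), and it was lower outside in the other 5 libraries.

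Prox1 was the most widely detected gene, with a UMI in 93.4% of lymphatic-like cells and 2.03% of the other gated cells. Mmrn1 was detected in 74.8% of lymphatic-like cells, Stab2 in 71.6%, Pdpn in 49.4% and Lyve1 in 37.0%. Foxc2 reached 19.96%, Reln 13.2%, Marco 6.69% and Ptx3 6.28%. B cell-like cells, which should lack these genes, had a UMI of Prox1 in 0.966%, of Lyve1 in 0.592% and of Stab2 in 1.53% of cells, at a median of 3080 UMIs a cell against 7521 in lymphatic-like and 4259 in other gated cells. For Reln the B cell-like share (1.47%) was above that of the other gated cells (0.291%), so no expression of Reln was read from the other gated cells. Of the 129 Reln UMIs in B cell-like cells, 94 came from 27 cells of the Cre-negative vehicle library, where their level (19.6 CPM) was above that of free RNA (8.94 CPM, from barcodes of at most 100 UMIs). The source of these UMIs was not tested.

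Single lymphatic-like cells usually carried several of the genes together. None of the 9 genes was detected in 0.560% of lymphatic-like cells, 3 in 24.8%, 4 in 28.3% and 5 in 17.8%, and no cell had all 9. With each cell thinned to 1000 UMIs, 13.9% of lymphatic-like cells had none, 29.1% had 2 and 6.60% had 4, and 97.0% of the other gated cells had none. Unthinned counts of genes per cell thus depend on depth. Of the 4275 gated cells with at least 2 of the genes, 90.8% were lymphatic-like, and of the 3495 with at least 3, 95.2% were. Of the 2236 gated cells with exactly 1 gene, 2023 were neither lymphatic-like nor in the mixed subclusters. The plot of genes per cell shows the separation.

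**Figure D1:**
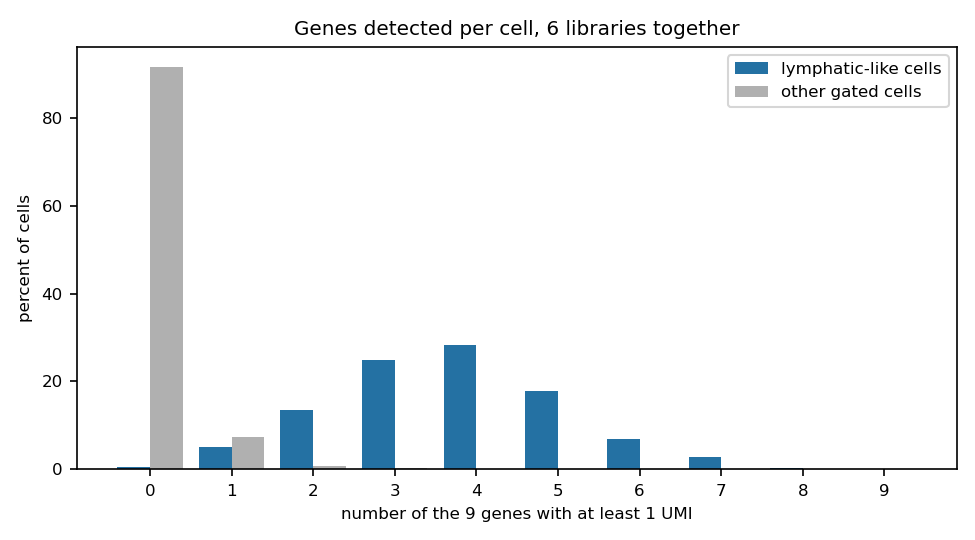
Percent of cells (y axis) by the number of the 9 genes with at least 1 UMI (x axis), for 4109 lymphatic-like cells and 27531 other gated cells of the 6 libraries together. Lymphatic-like cells peak at 4 genes (28.3%), while 91.6% of the other cells have none; depth is unequal, with a median of 7521 against 4259 UMIs a cell.

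Pairs of genes were then compared within gated cells. A Prox1 UMI was also present in 92.1% of Pdpn cells, 91.7% of Foxc2 cells, 89.3% of Ptx3 cells, 86.7% of Mmrn1 cells and 86.3% of Reln cells. It was present in 70.3% of Lyve1 cells and 43.1% of Marco cells, the lowest shares of the 8 genes. For Lyve1 this differed by library. At day 3 Prox1 was present in 157 of 337 Lyve1 cells (Cre-negative) and 208 of 369 (Cre-positive). At vehicle it was present in 195 of 259 and 275 of 340, and at day 7 in 379 of 488 and 328 of 400. In the other direction, 34.2% of Prox1 cells had Lyve1, so Lyve1 was detected in a minority of the cells with Prox1. With each cell thinned to 1000 UMIs, so that depth is equal, 18.5% of Prox1 cells had Lyve1 and 1.66% of cells without Prox1 did.

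Within lymphatic-like cells alone, Reln and Ptx3 went with Lyve1, and Foxc2 did not. Lyve1 was detected in 80.1% of 542 Reln cells against 30.5% of cells without Reln, and in 61.2% of 258 Ptx3 cells against 35.4% of those without. Reln itself was detected in 55.4% of Ptx3 cells and 10.4% of the rest. Marco cells had Lyve1 in 85.8% of 275 cases and Stab2 in 93.1%, but Ptx3 in 3.27%. Of 820 Foxc2 cells 21.5% had Lyve1, against 40.9% of cells without Foxc2, whereas 90.1% had Mmrn1, against 71.0%. Mmrn1 and Stab2 also shared cells: 82.3% of Mmrn1 cells had Stab2, against 39.5% of cells without Mmrn1. These shares are descriptions of cells that came from the same 6 libraries and differ in depth.

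**Figure D2:**
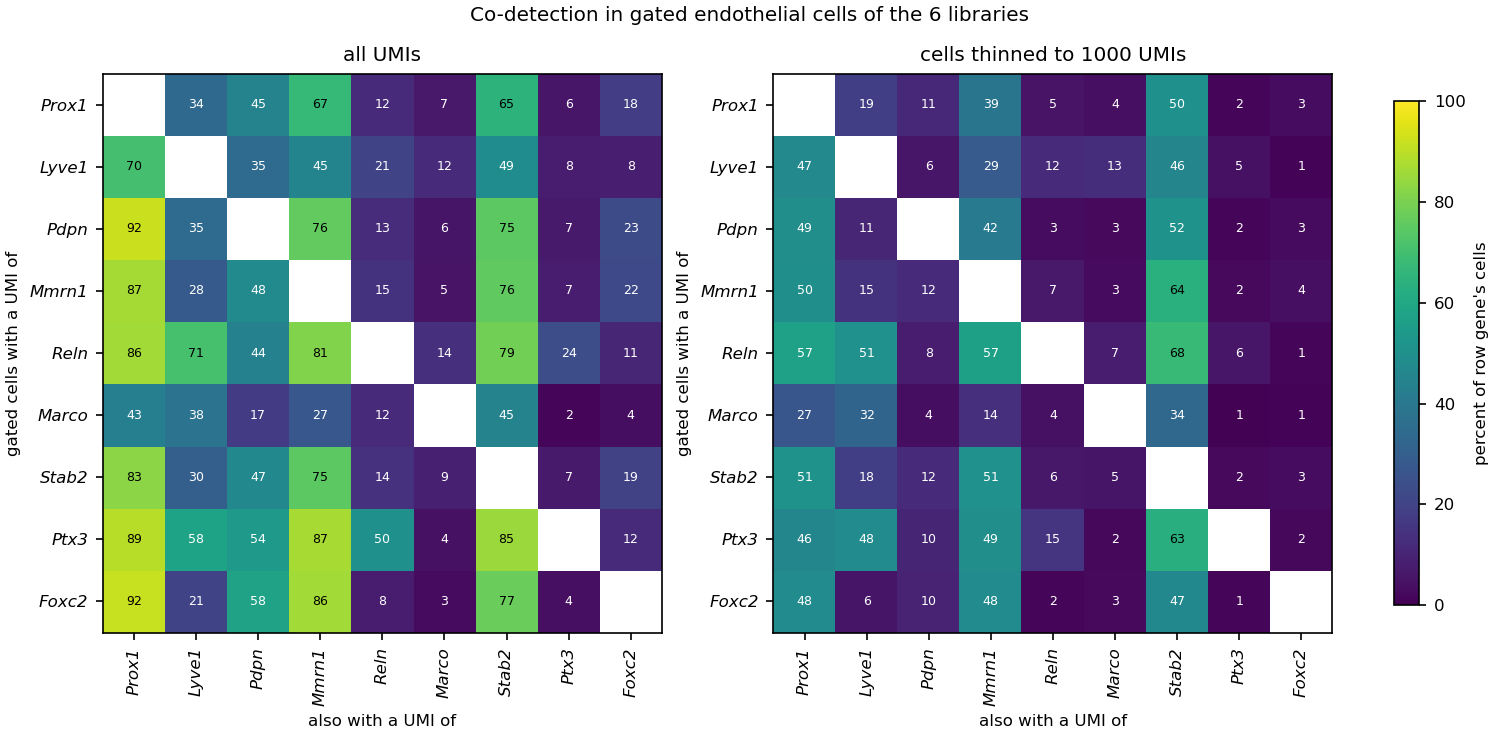
Percent of gated cells with a UMI of the row gene that also have one of the column gene, with all UMIs (left) and after thinning each cell to 1000 UMIs (right), 6 libraries together. The Prox1 column is high for every row gene but Marco (43.1%), and the Lyve1 column is highest for Reln.

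Reclustering the lymphatic-like cells, again without the 9 genes, gave subsets named from markers that include none of them. Ceiling-like cells (1917; named from Ackr4, Cav1, Btnl9 and Anxa2) and floor-like cells (1140; Madcam1, Itga2b, Ccl20, Coch and Cd274) were the most numerous. Paracortical sinus-like (414; Kcnj8, Itih5 and Mrc1), medullary-like (322; Clec4g, Mrc1 and Fcgr2b) and valve or collecting-like cells (51; Cldn11, Gja4, Itga9 and Gata2) followed, and 265 cells had no name. The paracortical sinus and medullary lists share Mrc1, so these names separate weakly. The medullary list summed to 250 CPM in the medullary-like subcluster, and to 118 and 684 CPM in the paracortical sinus-like ones. A share of 0.667 of that list was raised in the paracortical sinus-like subcluster at 684 CPM and in some floor-like subclusters. In the one at 118 CPM the share was 0.333. One ceiling-like subcluster was led by stress genes (Hspb1, Atf3, Fos) and another by Mmp13, Ccl2, Ccl7 and the fibroblast gene Dcn. The smallest was led by interferon-response genes (Rsad2, Cxcl10, Ifit2). The high endothelial venule markers summed to 7178 to 13556.5 CPM in the floor-like subclusters, with Glycam1 among the leading genes of one. They summed to 240 to 389 CPM in the ceiling-like ones, and to 7213 CPM in the mixed subcluster with blood endothelial markers. Why they were high in floor-like cells was not tested. Levels in these subsets are given as CPM of the UMIs summed over a subset's cells, pooled over the libraries unless a library is named, as a description without a test.

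The transcription factors differed in spread. Prox1 was at 748 CPM in ceiling-like, 779.9 in floor-like, 949 in paracortical sinus-like and 995 in medullary-like cells, and at 1765 in valve or collecting-like cells. It was thus present in every subset, and valve or collecting-like cells were above the other named subsets in each library (1331 to 3502 CPM, on 4 to 17 cells a library). On pooled values Foxc2 was highest there too (118 CPM), followed by ceiling-like cells (54.4), although in the Cre-positive vehicle library the valve or collecting-like level (41.4 CPM, from 2 UMIs) was below the ceiling-like one (51.2). It lay at 11.9 to 16.8 CPM in the other named subsets. Foxc2 was higher in ceiling-like than in floor-like, paracortical sinus-like and medullary-like cells in 6 of 6 libraries.

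The surface receptors split the sinuses. Lyve1 was at 1536 CPM in paracortical sinus-like and 1328 CPM in medullary-like cells, at 314 in floor-like and 45.7 in ceiling-like cells. The order of the first pair was not the same in every library, since the paracortical sinus-like level was the higher in 4 of 6, but both lay above the floor-like and the ceiling-like level in 6 of 6. Valve or collecting-like cells had 1 Lyve1 UMI in 51 cells (3.57 CPM, exact Poisson interval 0.0904 to 19.9) and 2 Stab2 UMIs (7.14 CPM). Stab2 was at 2884 CPM in paracortical sinus-like, 1807 in medullary-like, 1550 in ceiling-like and 207 in floor-like cells. Its floor-like level was the lowest of these in every library. Pdpn was at 191 CPM in ceiling-like, 131 in floor-like, 110.2 in paracortical sinus-like, 75.1 in medullary-like and 32.2 in valve or collecting-like cells. The last value came from 9 UMIs, of which 6 lay in the Cre-positive day 7 library (101 CPM there). The ceiling-like level of Pdpn was above the medullary-like one in 6 of 6 libraries and above the floor-like one in 4 of 6.

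Within the lymphatic-like population Marco was concentrated in the medullary-like cells, which held 86.9% of its UMIs over the 6 libraries together while making up 7.84% of the cells. Over the 6 libraries together Marco was at 1610 CPM in medullary-like cells, against 49.4 in floor-like, 44.9 in paracortical sinus-like and 1.35 in ceiling-like cells. In the Cre-negative day 3 library the medullary-like cells held 475 of 704 Marco UMIs, and in that library paracortical sinus-like cells were at 265 CPM and floor-like cells at 96.6 CPM. By library the medullary-like level was 863 CPM on 17 cells (Cre-negative vehicle) and 2038 on 103 cells (Cre-positive vehicle). It was 1788 on 30 cells (Cre-negative day 3) and 1043 on 40 cells (Cre-positive day 3). At day 7 it was 1068 on 64 cells (Cre-negative) and 1874 on 68 cells (Cre-positive). Of the 17 Cre-negative vehicle cells 7 had a Marco UMI, with 147 UMIs together. The Cre-positive library was higher at vehicle and day 7 and lower at day 3. Macrophage markers in the medullary-like subcluster summed to 10.4 CPM, against 0 to 6.65 in the subclusters of the other named subsets.

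Of the secreted products, Mmrn1 was high in paracortical sinus-like (1099 CPM), ceiling-like (956), valve or collecting-like (629) and medullary-like cells (549) and low in floor-like cells (89.3). The floor-like level was below the ceiling-like one in each of the 6 libraries, on pooled values by 10.7-fold. Reln was at 301 CPM in paracortical sinus-like cells, 116 in medullary-like cells, and 50.0, 18.7 and 11.3 in valve or collecting-like, ceiling-like and floor-like cells. Ptx3 had its maximum in the same subset as Reln, 131 CPM in paracortical sinus-like cells, which held 66.2% of its lymphatic-like UMIs. It was at 13.3 CPM in ceiling-like, 4.11 in medullary-like and 0.704 in floor-like cells. The floor-like value came from 7 UMIs, of which 5 lay in the Cre-positive vehicle library. No Ptx3 UMI was counted in the 51 valve or collecting-like cells (exact Poisson interval up to 13.2 CPM). At their median depth of 5405 UMIs this limits the share of cells with a UMI to 6.98% (exact binomial) and not the share expressing the gene, since only 33.3% of paracortical sinus-like cells had a Ptx3 UMI. Both Reln and Ptx3 were higher in paracortical sinus-like cells than in each of the ceiling-like, floor-like and medullary-like cells in 6 of 6 libraries. The ceiling-like subset was uneven, however. Its subcluster led by Igfbp5, Adamtsl1 and Fgl2 had Ptx3 at 75.5 CPM and Reln at 144 CPM. Its other subclusters lay at 0.962 to 16.3 CPM for Ptx3 and at 1.25 to 13.9 CPM for Reln. The paracortical sinus-like subclusters were at 67.4 and 201 CPM for Ptx3 and at 197 and 386 CPM for Reln.

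**Figure D3:**
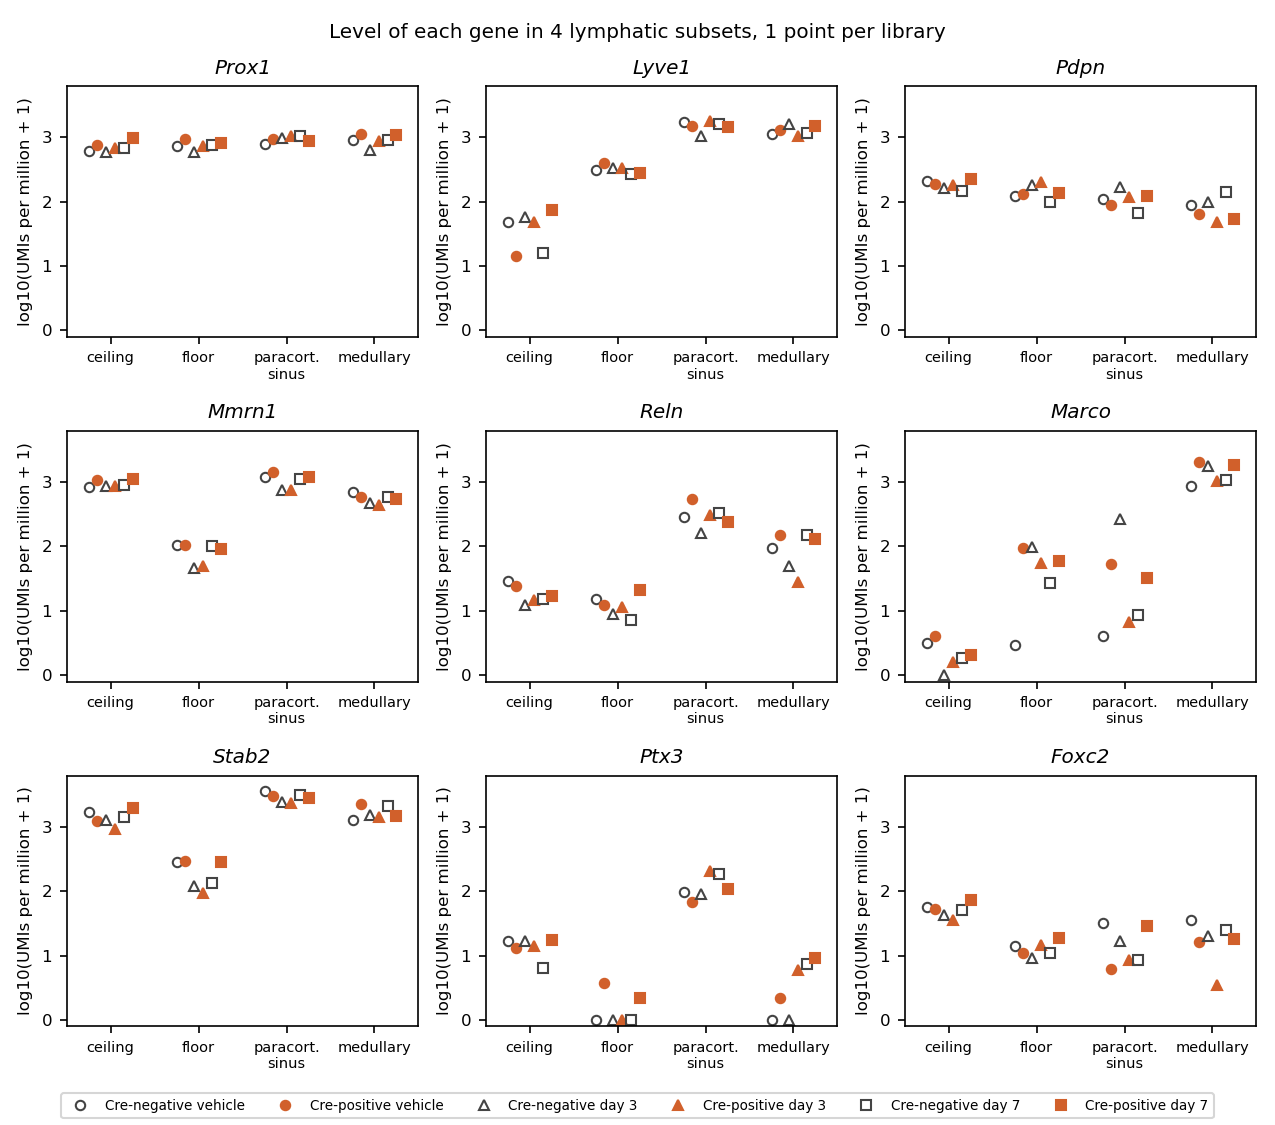
Level of each gene, log10(CPM + 1), in ceiling-like, floor-like, paracortical sinus-like and medullary-like cells, with 1 point per library (open for Cre-negative, filled for Cre-positive). Marco is highest in medullary-like cells (863 to 2038 CPM), Reln and Ptx3 in paracortical sinus-like cells, and Mmrn1 and Stab2 are lowest in floor-like cells in every library.

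Likeness between genes was described over 54 units of at least 30 cells (a lymphatic subcluster in a library), as Pearson's r of log2(CPM + 10); units share libraries and differ in depth. Mmrn1 and Stab2 had the highest r among all pairs of the 9 genes (0.82), followed by Ptx3 and Reln (0.73), Lyve1 and Reln (0.65) and Foxc2 and Mmrn1 (0.64). Foxc2 and Lyve1 were at −0.62. Over all genes of at least 20 CPM, the genes most like Stab2 were C1qtnf7 (0.96), Tnc and Rnf220, and those most like Mmrn1 were Ltbp4 (0.95), Cavin2 and Ctnnal1. Lyve1 was most like Igfbp4 (0.89), Lgmn and Meox2, and Foxc2 most like Ackr3 (0.88), Fstl1 and Prss23. Reln went with Plxdc2 (0.83), Hmcn1 and Nrp2, and Ptx3 with Nrp2 (0.75), Flt4 and Reln itself. Prox1 was most like Plxna2 (0.82), Baz2b and Herc4, Marco like Agfg1 (0.81), Galnt15 and Lifr, and Pdpn like Gja4 (0.68), Bvht and Tm4sf1.

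Promoter sequence was set beside these subset patterns for Reln and Ptx3, which shared a subset, and for Marco, which had another. The RefSeq table (GRCm38.p6) held entries for 7 of the 9 genes, and none for Lyve1 and Foxc2. Shown are the 250 bases before the start, 5′ to 3′ on the gene's strand, with capitals marking the core GGAA of ETS factors, or TTCC, its reverse.
Reln (chr5:22344706-22344955, minus strand): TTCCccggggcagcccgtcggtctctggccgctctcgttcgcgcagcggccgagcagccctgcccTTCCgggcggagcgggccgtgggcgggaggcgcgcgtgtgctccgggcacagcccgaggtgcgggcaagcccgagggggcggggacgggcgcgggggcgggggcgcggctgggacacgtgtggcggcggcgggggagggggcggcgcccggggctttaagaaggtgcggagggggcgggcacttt
Ptx3 (chr3:66219637-66219886, plus strand): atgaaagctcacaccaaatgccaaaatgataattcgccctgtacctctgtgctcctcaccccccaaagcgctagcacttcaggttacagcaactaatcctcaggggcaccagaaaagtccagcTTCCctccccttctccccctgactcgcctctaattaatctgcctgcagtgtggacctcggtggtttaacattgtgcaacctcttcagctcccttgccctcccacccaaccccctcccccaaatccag
Marco (chr1:120505025-120505274, minus strand): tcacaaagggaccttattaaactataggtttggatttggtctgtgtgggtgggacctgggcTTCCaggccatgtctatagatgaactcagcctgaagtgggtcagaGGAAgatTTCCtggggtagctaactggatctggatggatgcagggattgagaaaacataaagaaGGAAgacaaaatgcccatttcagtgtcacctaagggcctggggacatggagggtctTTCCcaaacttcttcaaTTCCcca
The window of Reln held 2 cores, that of Ptx3 held 1 and that of Marco held 6. Of 32851 promoters of the same length 93.4% held at least 1 core on either strand, 76.8% at least 2 and 8.69% at least 6, with a median of 3. None of these 3 windows held the GATA letters AGATAA (or TTATCT; 9.99% of promoters) or the forkhead letters TGTTTAC (or GTAAACA; 3.17% of promoters). The cores are matches to letters only. GC content was 80.0% for Reln, 54.0% for Ptx3 and 47.6% for Marco.

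The gene models behind these counts lay as follows (GENCODE release 21 for mouse, GRCm38, 1-based): Prox1 at chr1:190118035-190170714 (minus strand), Lyve1 at chr7:110850607-110863239 (minus), Pdpn at chr4:143267431-143299564 (minus), Mmrn1 at chr6:60924976-60989378 (plus), Reln at chr5:21884454-22344702 (minus), Marco at chr1:120474538-120505024 (minus), Stab2 at chr10:86841198-87008025 (minus), Ptx3 at chr3:66219910-66225805 (plus) and Foxc2 at chr8:121116171-121118895 (plus). Exons of Prox1, Reln and Stab2 overlap antisense exons (Prox1os, Gm10475 and Gm16268). Whether reads were counted by strand is not stated, so the counts of these 3 genes are uncertain to that extent.

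Across libraries, levels per kilobase of exonic length in lymphatic-like cells fell into an upper and a lower set. The medians over the 6 libraries were 139 CPM per kb for Lyve1, 136 for Stab2, 104 for Mmrn1, 94.9 for Prox1, 85.6 for Pdpn and 84.5 for Marco. Neighbours in that order overlapped in their ranges over the libraries. Foxc2 (9.68), Ptx3 (6.67) and Reln (2.28) were lower; the ranges of Foxc2 and Ptx3 overlapped, and Reln (1.12 to 3.47) lay below both. The lowest Marco library (14.6) lay within the Foxc2 range (8.36 to 17.4). UMIs from 3′ ends do not scale with gene length, so the order holds for this scale alone.

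Between libraries Prox1 varied least and Marco most. Prox1 was at 676 CPM in the Cre-negative and 924 in the Cre-positive vehicle library, at 697 and 787 at day 3 and at 806 and 954 at day 7. The Cre-positive library was the higher at each time, and the groups overlapped over time, with a highest value 1.41-fold above the lowest. Marco was at 28.1 and 385 CPM at vehicle, 207 and 125 at day 3 and 83.4 and 201 at day 7, a 13.7-fold range whose lowest and highest values were the vehicle libraries. Lyve1 was at 249.6 and 487 CPM at vehicle, 364 and 468 at day 3 and 355 and 449 at day 7. Every Cre-positive value of Lyve1 lay above every Cre-negative value. Reln was at 40.5 and 82.4 CPM, then 26.5 and 54.5, then 54.0 and 60.6, and all 3 Cre-positive values lay above the Cre-negative ones, the nearest by less than 1 CPM. Ptx3, at 15.1 and 10.3, then 15.9 and 35.1, then 19.9 and 24.0 CPM, had its highest value in the Cre-positive day 3 library. Mmrn1 ranged from 530.1 to 821 CPM, Stab2 from 974 to 1661, Pdpn from 113 to 173 and Foxc2 from 22.8 to 47.4.

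**Figure D4:**
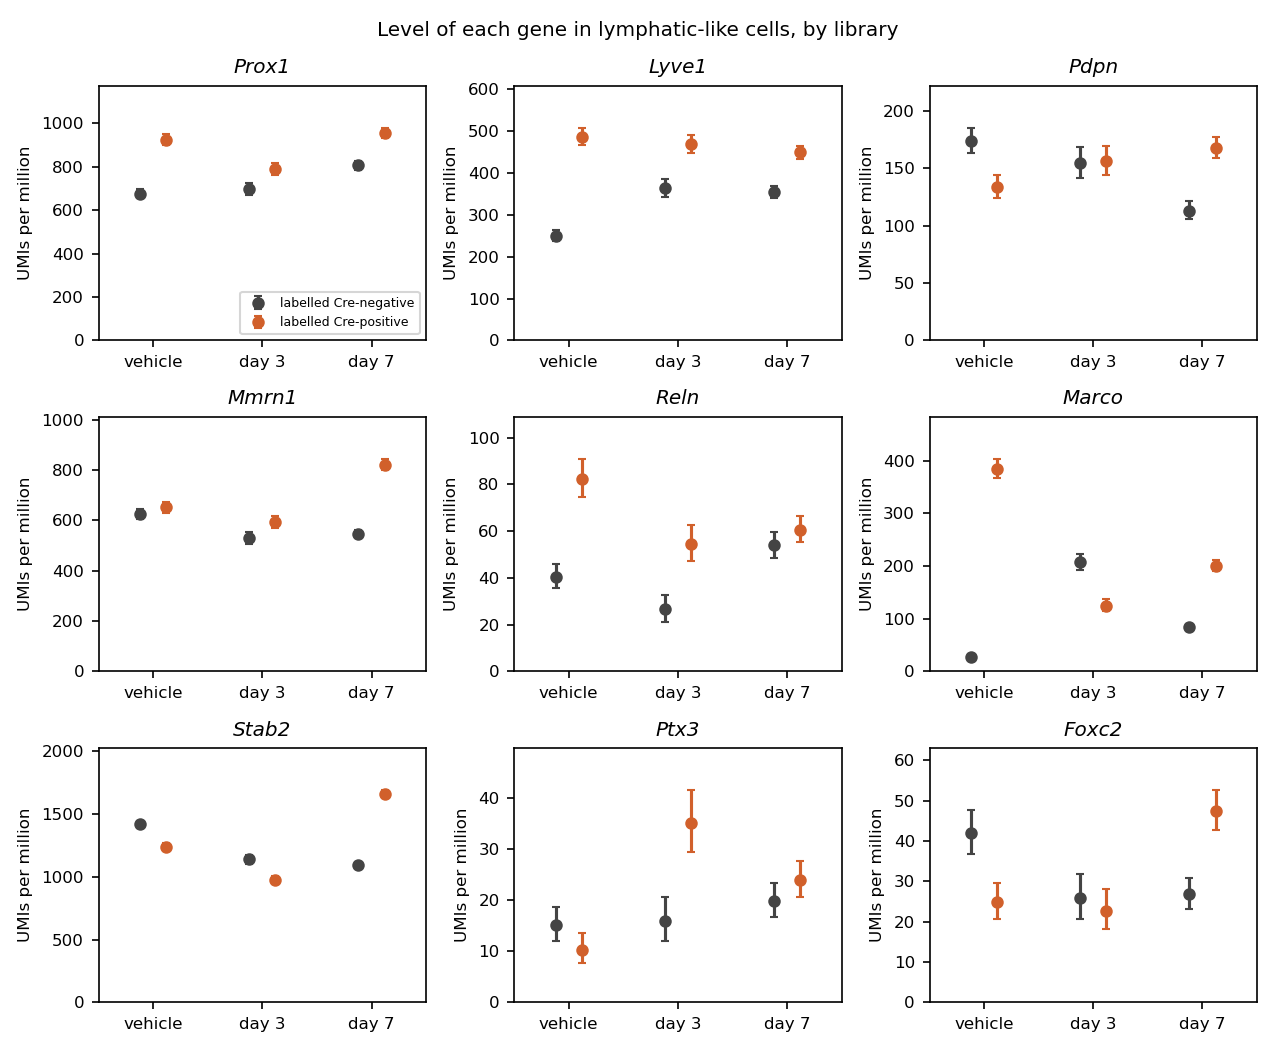
Level of each gene in lymphatic-like cells (CPM, axis from 0) in the 6 libraries; bars are exact Poisson intervals at 95% for counting error only. The Cre-positive points of Lyve1 lie between 449 and 487 and the Cre-negative ones between 249.6 and 364, while Marco has its lowest and highest point at vehicle.

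By label, the test across libraries called none of the 9 genes. Of 12591 genes tested 1 was called at an adjusted p under 0.05 (0.00794%), and 393 had an unadjusted p under 0.05. That gene was Cdo1, a neighbour of Atg12 on its chromosome, named after its values were seen: it was at 4.04, 4.42 and 4.69 CPM in the Cre-negative and 22.8, 20.4 and 20.2 CPM in the Cre-positive libraries (log2 change 2.30, SE 0.22, edgeR adjusted p = 0.0129). The call of Cdo1 was lost without the Cre-negative day 3 library (2.31, edgeR adjusted p = 0.522), without the Cre-positive day 3 library (2.30, 0.998), with lymphatic-like cells taken by a Flt4 UMI (2.43, 0.199) and with cells that had a Y-linked and no Xist UMI (2.25, 0.0672). Of the 9 genes, all 9 had a positive log2 change, with a median of 0.34, while over all genes 6194 of 12591 were positive. Marco was at 1.42 (SE 0.66), Reln at 0.77 (SE 0.21), Lyve1 at 0.60 (SE 0.21), Prox1 and Ptx3 at 0.34 (SE 0.21 and 0.28) and Mmrn1 at 0.32 (SE 0.21). Pdpn (0.12), Stab2 (0.11) and Foxc2 (0.03) were within 1 SE of 0. The edgeR adjusted p was 1.00 for each gene. Before adjustment, Reln had an edgeR unadjusted p = 0.00476 and Lyve1 an unadjusted p = 0.0183 (adjusted p = 1.00). With both day 7 libraries left out, Reln was called (log2 change 1.10, edgeR adjusted p = 0.0283), in a fit that called 83 of 12393 genes (0.67%). Without the Cre-positive day 7 library Marco was called too (1.56, edgeR adjusted p = 0.0418), in a fit that called 81 of 12772 (0.634%). Marco was at 0.32 and 0.33 without the Cre-negative and the Cre-positive vehicle library, and at 2.508 and 2.502 without the Cre-negative and the Cre-positive day 3 library, uncalled in each case. The signs of Pdpn, Stab2 and Foxc2 turned without day 7, and that of Ptx3 without day 3.

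Marco's difference by label went one way at vehicle and the other at day 3. The log2 ratio of Cre-positive over Cre-negative was 3.78 at vehicle (interval 3.54 to 4.02), −0.73 at day 3 (−0.91 to −0.56) and 1.27 at day 7 (1.13 to 1.41). At vehicle its 160 (Cre-negative) and 1938 (Cre-positive) UMIs lay in 20 and 89 lymphatic-like cells, a clumping that these intervals leave out. Medullary-like cells made up 2.37% of lymphatic-like cells in the Cre-negative and 16.2% in the Cre-positive vehicle library, a ratio of 6.82, against 7.32% and 9.35% at day 3 and 6.48% and 7.32% at day 7. When every library was given the same mix of subsets, Marco was at 79.2 and 217 CPM at vehicle, 222 and 110.3 at day 3 and 105 and 189 at day 7. Its order by label at each time was the same as without this step, and the vehicle gap was smaller. The Cre-negative vehicle value takes its medullary-like level from only 17 cells. Marco in the free RNA of each library, from barcodes of at most 100 UMIs, was at 159 and 326 CPM at vehicle, 138 and 80.6 at day 3 and 105 and 128 at day 7, in the same order by label at each time. The part of free RNA in Marco's difference was not tested.

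Lyve1 and Reln had the same direction by label at each time. For Lyve1 the log2 ratio was 0.96 at vehicle (0.87 to 1.06), 0.37 at day 3 (0.26 to 0.47) and 0.34 at day 7 (0.27 to 0.42). With the same mix of subsets in every library the levels of Lyve1 were 396 and 397 CPM at vehicle, 386 and 406 at day 3 and 359 and 402 at day 7, so the vehicle gap was nearly absent on that scale. For Reln the log2 ratio was 1.02 (0.79 to 1.26), 1.04 (0.68 to 1.41) and 0.17 (−0.03 to 0.37), and the day 7 interval includes 0. At equal mix Reln was at 55.0 and 85.7 CPM, 28.3 and 42.5, and 61.5 and 51.9, with the order turned at day 7. Prox1 was at 0.45, 0.18 and 0.24 (0.39 to 0.51, 0.10 to 0.25 and 0.19 to 0.29, for counting error only). At equal mix it was still the higher in the Cre-positive library at each time: 706 and 891, 681 and 775, 807 and 944 CPM. The mix of cells with Y-linked and with Xist UMIs differed between these libraries. In the fit on cells with a Y-linked and no Xist UMI, the log2 change by label was 0.79 for Lyve1, 0.78 for Reln, 0.30 for Prox1 and 3.90 for Marco, all uncalled (edgeR adjusted p of 0.0672 for Marco and 1.00 for the others).

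Of the other 5 genes, 4 changed order between times. Stab2 was lower in the Cre-positive library at vehicle (log2 ratio −0.19) and day 3 (−0.23) and higher at day 7 (0.60, interval 0.56 to 0.65). Pdpn, at −0.37, 0.02 and 0.57, and Foxc2, at −0.76, −0.19 and 0.82, also went from lower at vehicle to higher at day 7. Mmrn1 did not change order, at 0.06, 0.16 and 0.59. With the same mix of subsets in every library, Stab2 was at 1418 and 1269 CPM at vehicle, 1093 and 842 at day 3 and 1304 and 1478 at day 7. Foxc2 was then at 38.3 and 28.7, 26.6 and 23.0, and 30.5 and 44.5 CPM, and Pdpn at 159 and 144, 158 and 162, and 119 and 163 CPM. The turns of these 3 genes between vehicle and day 7 were thus also present at equal mix. Mmrn1, at 607 and 755, 547 and 538, and 642 and 727 CPM, turned at day 3 on that scale. The ceiling-like share of lymphatic-like cells was 60.3% and 35.8% at vehicle, 40.7% and 50.7% at day 3 and 37.6% and 54.0% at day 7 (Cre-negative, then Cre-positive). Ptx3 was at −0.55 (−1.07 to −0.04), 1.14 (0.68 to 1.63) and 0.27 (−0.05 to 0.60). At equal mix it was at 17.2 and 13.0 CPM, 16.5 and 26.8, and 21.8 and 19.2, with a smaller gap at day 3 and the order turned at day 7. Paracortical sinus-like cells, which held most Ptx3 UMIs, made up 7.53% and 7.22% of lymphatic-like cells at vehicle, 9.27% and 14.5% at day 3 and 8.502% and 13.99% at day 7. In paracortical sinus-like cells Ptx3 was at 97.9 and 68.2 CPM at vehicle, 90.3 and 204 at day 3 and 186 and 106 at day 7.

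**Figure D5:**
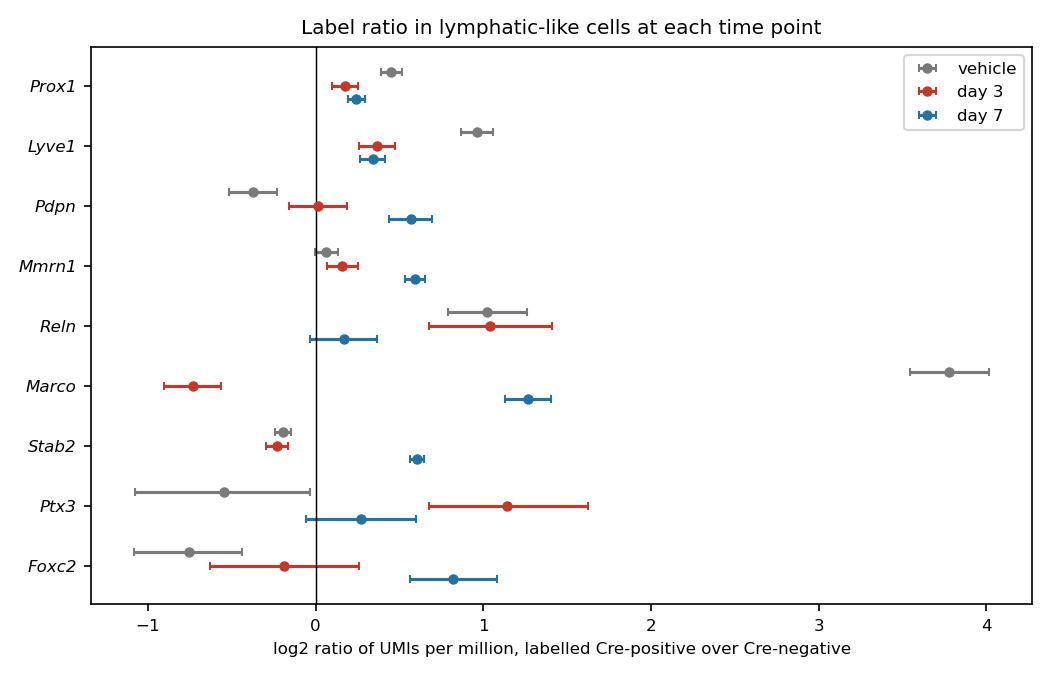
Log2 ratio of CPM, Cre-positive over Cre-negative, for each gene in lymphatic-like cells at vehicle, day 3 and day 7; bars are intervals at 95% for counting error only and the line marks 0. Prox1, Lyve1 and Reln lie above 0 at each time, while Marco goes from 3.78 at vehicle to −0.73 at day 3.

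A change of at least 1.5-fold between a single pair of libraries was common across all genes. Between the labels at vehicle 20.2% of 12591 genes passed it, and 4 of the 9 did: Lyve1, Marco and Reln upward in the Cre-positive library and Foxc2 downward. At day 3 18.8% of genes passed and 3 of the 9 did, Ptx3 and Reln upward and Marco downward. At day 7 12.9% of genes passed and 4 of the 9 did, Foxc2, Marco, Mmrn1 and Stab2, all upward.

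The oxazolone comparisons also called none of the 9 genes. At day 3 against vehicle, averaged over the labels, edgeR called 0 of 12591 genes (0%), 767 had an unadjusted p under 0.05, and DESeq2 called 13. At day 7 edgeR called 0 (0%), 99 had an unadjusted p under 0.05, and DESeq2 called 0. Ptx3, a pentraxin that is released in inflammation, had the largest log2 change of the 9 at both times: 0.97 at day 3 (SE 0.35, unadjusted p = 0.0193, edgeR adjusted p = 0.724) and 0.73 at day 7 (SE 0.34, edgeR adjusted p = 1). Both values of Ptx3 depended on single libraries. At day 3 it was at 1.61 without the Cre-negative vehicle library, when it was called (edgeR adjusted p = 0.0146) in a fit that called 322 of 12752 genes (2.53%), at 1.58 without the Cre-negative day 3 library, at 0.39 without the Cre-positive vehicle library and at 0.27 without the Cre-positive day 3 library. At day 7 it was at 1.38 without the Cre-negative and at 0.19 without the Cre-positive vehicle library. Reln was at −0.57 (SE 0.26) at day 3, and between −0.86 and −0.31 when 1 library was left out, and at −0.02 at day 7. At day 3 the remaining 7 genes lay between −0.43 and 0.51. Leaving out 1 library there took Foxc2 to −0.96 and 0.21, Lyve1 to 0.56 and Stab2 to −0.50. At day 7 the same 7 genes lay between −0.17 and 0.17. Leaving out 1 library took day 7 values beyond that range, to −0.50 and 0.72 for Foxc2, −0.50 for Pdpn, −0.36 and 0.36 for Stab2, 0.48 for Lyve1, 0.24 for Mmrn1 and 0.25 for Prox1. Marco was at 0.51 with an SE of 0.81 at day 3, and without the Cre-positive vehicle library at 2.46 (edgeR adjusted p = 0.00498, in a fit that called 80 of 13034 genes, 0.614%). At day 7 it went from −0.17 to 2.12 without that library (edgeR adjusted p = 0.0249, with 47 of 13034 genes called, 0.361%). In such fits the vehicle group is a single library, assumed to vary like the other groups, with 1 residual degree of freedom. Without the Cre-negative vehicle library Marco was at −1.01 at day 3 and −1.38 at day 7.

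Within each label the 2 vehicle libraries set opposite directions for Marco. Against vehicle, Marco was at a log2 ratio of 2.88 at day 3 and 1.57 at day 7 in Cre-negative libraries, and at −1.62 and −0.94 in Cre-positive ones. Reln had a like ratio at day 3 in both labels, −0.61 (−0.98 to −0.26) and −0.60 (−0.84 to −0.35). Ptx3 was at 0.08 (−0.44 to 0.58) in Cre-negative and 1.77 (1.29 to 2.26) in Cre-positive libraries at day 3, and at 0.40 and 1.22 at day 7. Stab2 was lower at day 3 in both labels (−0.31 and −0.35), and at day 7 at −0.38 and 0.42. Of the 9 genes 3 passed 1.5-fold in each of these pairs, against 17.6% of all genes for Cre-negative day 3, 25.1% for Cre-positive day 3, 12.6% for Cre-negative day 7 and 15.3% for Cre-positive day 7. The difference between the labels in these responses was not tested, since each combination is 1 library.

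The share of lymphatic-like cells among gated cells bears on all levels taken over gated cells. It was 12.4% (exact interval 11.6 to 13.3) and 12.6% (11.7 to 13.5) at vehicle, 9.08% (8.26 to 9.96) and 6.27% (5.71 to 6.87) at day 3 and 18.5% (17.4 to 19.5) and 21.9% (20.6 to 23.1) at day 7, Cre-negative first. Prox1 over all gated cells followed the same order of times, at 124 and 175, 85.3 and 81.6, and 184 and 269 CPM. The Cre-positive over Cre-negative ratio of these shares was 1.01 at vehicle, 0.691 at day 3 and 1.18 at day 7. At day 3 the Cre-positive gated cells included 936 of the low-UMI cluster, and the Cre-negative ones 5. Among cells of at least 2000 UMIs the day 3 shares were 10.4% and 8.02%. With a gate of at least 3 UMIs they were 9.40% and 7.08%. The part of the low-UMI cluster in the day 3 ratio was not tested. With only cells that had a Y-linked and no Xist UMI, the day 3 ratio was 1.22. Shares are of cells that passed bead depletion, sorting and the gate.

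Other regulators of lymphatic endothelium, a list of 29 genes of which 28 were tested, were also not called: 0 by label, 0 at day 3 and 0 at day 7 with edgeR. By label 21 of the 28 were positive, with a median log2 change of 0.09. At day 3 12 were (median −0.07) and at day 7 11 were (median −0.04). Over all 12591 genes 6194, 6142 and 6291 were positive in these 3 comparisons. Flt4, the receptor for VEGF-C, was at 164, 179 and 181 CPM in the Cre-negative and 224, 187 and 267 CPM in the Cre-positive libraries (log2 change 0.41, SE 0.19, unadjusted p = 0.0509, edgeR adjusted p = 1.00). Its co-receptor Nrp2 was at 152, 181 and 174 against 231, 231 and 237 CPM (0.51, SE 0.18, unadjusted p = 0.0168, edgeR adjusted p = 1.00), and its groups did not overlap. Ccl21a, a chemokine that guides dendritic cells and T cells, was at 157 CPM in the Cre-negative vehicle library and at 24.6 to 70.7 CPM in the other 5 (by label −0.26, SE 0.54). At day 7 Ccl21a had a log2 change of −1.65 (SE 0.64, unadjusted p = 0.0266, edgeR adjusted p = 1). Unadjusted p values under 0.05 were counted for 2, 2 and 1 of the 28 genes by label, at day 3 and at day 7. By label they were Nrp2 and Gja1 (0.43, edgeR unadjusted p = 0.0385). At day 3 they were Cldn11 (−0.87, edgeR unadjusted p = 0.00908, adjusted p = 0.669) and Vegfc (1.74, edgeR unadjusted p = 0.000726, adjusted p = 0.339). Vegfc was at 4.39 and 5.36 CPM at vehicle and 17.7 and 14.1 at day 3, Cre-negative first. The gene at day 7 was Ccl21a.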

How the data were processed

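UMI counts per gene and cell barcode were used as the authors deposited them, as unfiltered 10x Genomics matrices. The submitters' processing notes name Cell Ranger 7.0.1 and the build mm10, while per the file headers the matrices carry software version 4; the use of strand is not stated. Chemistry was V2, per the labels' protocols, with 10000 cells aimed at per library. From the deposited counts, barcodes entered with 1000 or more UMIs, 500 or more genes and no more than 10% of UMIs from mitochondrial genes. Doublets were scored with Scrublet (scanpy 1.11.5) and the highest 0.8% per 1000 cells were removed. Its automatic threshold called 0 and 2 barcodes in the Cre-negative vehicle and Cre-positive day 3 libraries, and there the removed barcodes had lower median UMI counts than the rest (3933 against 4325 and 2203 against 3433). The gate was Pecam1 plus Cdh5 of at least 2 UMIs.

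Cells were clustered (2000 variable genes without the 9 genes, Atg12, Xist, Tsix and Y-linked genes; 30 components; 20 neighbours; Leiden, resolution 1), and lymphatic-like cells again in the same way. Subsets were named where a share of at least 0.5 of a marker list lay 1.5-fold above the other lymphatic-like cells. Clustering and naming took the gated barcodes before doublets were removed. Values given for a single subcluster therefore include barcodes removed later. Cell numbers and levels of the subsets leave them out. The rules for lymphatic clusters, subset names and mixed subclusters, and the resolution, were set after seeing the clusters. Counts summed per library over lymphatic-like cells were tested with edgeR 4.0.16 (R 4.3.3; TMM scaling, filterByExpr by label, label plus treatment, 2 residual degrees of freedom), with Benjamini-Hochberg adjustment at 0.05 over 12591 genes; DESeq2 1.42.0 was an alternative. The script was tested on simulated data. Single values carry exact Poisson or Clopper-Pearson intervals. The equal mix weights each library's subset levels by the pooled shares of the subsets in lymphatic-like UMIs. Of the 2 gene entries named Ccl21a, 1 passed the filter of the test.

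Nothing says that the single library per combination came from separate mice, so p-values measure the spread between these libraries. In the additive fit, a label difference that changes with treatment also counts as error. The SEs and the lack of calls for genes that changed direction by label between times include that part. The 9 genes, the marker and regulator lists and the tests were chosen with earlier results of these data known. The genes named beside the 9 are Flt4, Nrp2 and Ccl21a, any called gene, and the 3 most like each of the 9. Gja1, Cldn11 and Vegfc, regulators with an unadjusted p under 0.05, were named after their values were seen.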

Additional observations from a re-analysis of the deposited data

Results flagged for a closer look

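Several values differed in direction between time points, each from 1 library per label and time, and none of these differences was tested. Marco's log2 ratio of Cre-positive over Cre-negative was 3.78 at vehicle, −0.73 at day 3 and 1.27 at day 7, so the day 3 pair went against the other 2 pairs. Stab2 was at −0.19 at vehicle and −0.23 at day 3 against 0.60 at day 7. Pdpn went from −0.37 at vehicle to 0.57 at day 7, and Foxc2 from −0.76 to 0.82. Ptx3 went from −0.55 at vehicle to 1.14 at day 3.

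The make-up of the gated and lymphatic-like cells also changed direction by label, likewise untested. The lymphatic-like share ratio was 0.691 at day 3 and 1.18 at day 7. The ceiling-like share ratio was 0.594 at vehicle, 1.24 at day 3 and 1.44 at day 7. The floor-like share ratio took the opposite course, at 1.57, 0.718 and 0.452.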

How the results depend on the processing

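Counts of called genes depended on the processing. By label 1 gene was called; the count was 0 with lymphatic-like cells taken by a Flt4 UMI, with cells that had a Y-linked and no Xist UMI, and without day 3, 91 without the filter on low counts, 83 without day 7, 38 without vehicle, and 0 to 83 when leaving out 1 library. At day 3 the count of 0 became 13 with DESeq2, 1 with Y-linked cells, 211 without the filter and 0 to 322 without 1 library; at day 7 it became 1 with Y-linked cells, 29 without the filter and 0 to 47 without 1 library. The share ratio with Y-linked cells was 1.25 at vehicle, 1.22 at day 3 (turned from 0.691) and 1.32 at day 7, and with the Flt4 rule 0.847 at day 3 and 1.36 at day 7. The causes were not tested.

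Of the 9 genes' log2 changes (27 values), 397 alternative values kept direction and side of the threshold. A further 53 turned, whether called or not, and 9 became called in the same direction. By label, without day 7, Pdpn was at −0.11, Stab2 at −0.14 and Foxc2 at −0.42, and Ptx3 at −0.091 without day 3. With Y-linked cells Foxc2 was at −0.019 by label; at day 3 Prox1 was at 0.19, Lyve1 at −0.088, Pdpn at −0.020, Mmrn1 at 0.023, Marco at −0.43 and Foxc2 at 0.013; at day 7 Mmrn1 was at −0.15, Reln at 0.47 and Marco at 1.21. With the Flt4 rule Lyve1 was at −0.051, Pdpn at −0.27 and Marco at −0.61 at day 3, and Pdpn at 0.088 and Reln at 0.26 at day 7. Without cells with immune UMIs Reln was at 0.16 at day 7, and with a gate of at least 3 UMIs Stab2 was at −0.0018.

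Leaving out 1 library gave, by label, 0.25 to 0.38 for Prox1, 0.40 to 0.73 for Lyve1, 0.18 to 0.42 for Mmrn1 (lowest without a day 7 library), −0.11 to 0.34 for Pdpn, −0.14 to 0.24 for Stab2, −0.091 to 0.70 for Ptx3, −0.43 to 0.43 for Foxc2, 0.59 to 1.10 for Reln and 0.32 to 2.51 for Marco. At day 3 it gave −0.18 to 0.042 for Prox1, −0.023 to 0.56 for Lyve1, −0.29 to 0.41 for Pdpn, −0.33 to 0.011 for Mmrn1, −1.08 to 2.46 for Marco, 0.27 to 1.61 for Ptx3, −0.86 to −0.31 for Reln, −0.50 to −0.090 for Stab2 and −0.96 to 0.21 for Foxc2. At day 7 it gave 0.0063 to 0.25 for Prox1, −0.13 to 0.48 for Lyve1, −0.50 to 0.17 for Pdpn, −0.15 to 0.24 for Mmrn1, −0.51 to 0.44 for Reln, −1.38 to 2.12 for Marco, −0.36 to 0.36 for Stab2, 0.19 to 1.38 for Ptx3 and −0.50 to 0.72 for Foxc2. Without the filter Marco (1.42, edgeR adjusted p = 4.68e-06) and Reln (0.77, 0.0258) were called by label and Ptx3 at day 3 (0.95, 0.0350). Those fits called 91 of 21655 genes by label and 211 of 21655 at day 3. Prox1, Lyve1, Reln, Marco and Mmrn1 kept a positive change by label under every alternative run. Keeping the mixed subclusters, chosen after seeing the data, turned no value and moved no call. Thinned to 1000 UMIs, the share of gated cells with a UMI was 7.33% for Prox1 and 0.274% for Ptx3, against 14.2% and 0.942%, so shares of cells depend on depth.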
